A study of Mus musculus with 6 samples.

Results

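The nuclei described here are amacrine nuclei of the mouse retina that carried transcripts of Slc17a8, the gene of the vesicular glutamate transporter VGLUT3, and are called VG3 nuclei. They were chosen by their measured counts. A VG3 nucleus had more than 500 unique molecular identifiers (UMIs, each counting 1 captured transcript), at least 200 genes and less than 5% mitochondrial UMIs, at least 2 UMIs of Slc17a8, at least 1 UMI of Slc6a9, Tfap2a or Tfap2b, and no UMI of Slc17a6, Trpm1, Abca8a or Arr3, which mark ganglion cells, ON bipolar cells, Muller glia and cones. This rule took 226 of the 56205 nuclei that passed the filters. They were compared with 4855 other amacrine nuclei of the same libraries (at least 2 UMIs of Slc6a9 or Gad1, no UMI of Slc17a8 or of the exclusion genes), and VG3 nuclei of IL-27 treated retinas were compared with those of saline control retinas.

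Single-nucleus RNA sequencing had been done on 6 libraries, 3 per group, to ask how cells of a degenerating retina respond to IL-27, a cytokine that signals through Il27ra and Il6st to the STAT proteins. All 6 came from rd10 mice (strain B6.CXB1-Pde6b-rd10/J), whose missense mutation in the rod phosphodiesterase gene Pde6b leads to the loss of rods and then cones, so that both groups shared the degeneration and no retina free of it was analysed here. An intravitreal injection at postnatal day (P) 18 delivered 20 ng of IL-27 protein in the treated group and saline in the control group, and the retinas were flash-frozen at P20. Whether a library holds 1 retina, 1 animal or a pool is not given in the sources used here, so p-values measure the spread between these libraries. Xist was at 2046 CPM in VG3 nuclei of saline control 2 and at 2032 CPM in those of IL-27 treated 5, and at 0 in the other 4 libraries, so each group held 1 library with Xist.

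VG3 amacrine cells are interneurons that carry both an excitatory and an inhibitory transmitter: VGLUT3 loads glutamate into synaptic vesicles, and the glycine transporter GlyT1, the product of Slc6a9, takes up glycine. Their processes arborise in the middle of the inner plexiform layer, where they excite ganglion cells that respond to the motion of small objects. The homophilic adhesion molecule sidekick 2 (Sdk2) is known to join them to one of these ganglion cell types. Other amacrine cells are mostly either glycinergic, with Slc6a9, or GABAergic, with Gad1 and Gad2, and include the cholinergic starburst cells and the AII cells of the rod pathway.

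Levels were expressed as CPM, that is the UMIs of a gene summed over the nuclei of a class in a library, scaled to a total of 1000000 UMIs. Between 35 and 44 VG3 nuclei per library gave sums of 202820 to 301279 UMIs. The genes of the rule are described without a test. Slc17a8 (GRCm38 chr10:89574020-89621253, minus strand) was at 2109, 1751 and 2068 CPM in the saline control libraries and 1962, 1918 and 2032 CPM in the IL-27 treated libraries. A VG3 nucleus held a median of 11 Slc17a8 UMIs, with a lowest value of 2 and a highest of 42, and 204 of the 226 held at least 5. Among the marker genes of the rule, Tfap2b, a transcription factor of amacrine cells, was detected in 218 nuclei, Tfap2a in 161 and Slc6a9 in 132, and only 4 nuclei qualified through Slc6a9 alone. Slc6a9 was at 157 ± 32.2 CPM (mean ± SD, n = 6) in VG3 nuclei, whereas glycinergic nuclei, which were required to hold at least 2 UMIs of it, were at 608 ± 43.3 CPM. Gad1 had at least 1 UMI in 25 VG3 nuclei and at least 2 in 7.

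In all, 631 nuclei held at least 2 Slc17a8 UMIs. Besides the 226 members, 156 had an amacrine marker together with a UMI of an exclusion gene, which was a single such UMI in 56 of them. A further 239 had no amacrine marker and a UMI of an exclusion gene, which was the Muller gene Abca8a in 225. The last 10 had neither. Rods, a type that does not use VGLUT3, gave the background share: 264 of 15177 rod nuclei had a Slc17a8 UMI (1.74%, exact Clopper-Pearson 95% interval 1.54 to 1.96%, counting error only), and 47 had at least 2, at a median of 1578 UMIs per rod nucleus against 5773 UMIs per VG3 nucleus (mean of the library medians). Just outside the threshold lay 142 nuclei with exactly 1 Slc17a8 UMI that met the rest of the rule, and just inside it 11 with exactly 2. Nxph1, the gene that set VG3 nuclei furthest apart from other amacrine nuclei, was at 87.2 CPM in the pooled nuclei with 1 UMI, at 1145 CPM in those with 2 and at 35.6 CPM in the other amacrine nuclei.

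When the 226 members and the 4855 other amacrine nuclei were clustered on genes that the rule did not use, 202 of the members fell together in 1 of 44 clusters, which held none of the 4855. Amacrine nuclei with exactly 1 Slc17a8 UMI or with a UMI of an exclusion gene were not clustered, so that this cluster is set in part by which nuclei entered. This leading cluster took 33, 32 and 39 members of the saline control libraries and 33, 36 and 29 of the IL-27 treated libraries. The 24 members outside it (3, 3 and 5 in saline control, 3, 3 and 7 in IL-27 treated libraries) had a lower median of Slc17a8, 7.5 against 12 UMIs, at a higher median depth of 7960.5 against 5395 UMIs. They also carried more RNA of the transcription factor gene Meis2 (1036 against 64.6 CPM, pooled over nuclei) and less of Nxph1 (1994 against 5441 CPM). The other amacrine nuclei had 930 CPM of Meis2. Because the clusters were drawn from these same counts, the values are descriptive. Doublet candidates, the top 8% of doublet scores in each library, numbered 4 of 226 VG3 nuclei and 228 of 4855 other amacrine nuclei. Of the cell barcodes, 367 occurred in more than 1 library, 1 member had its barcode in another library, and no barcode was shared by members of different libraries.

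The share of VG3 nuclei among amacrine nuclei was close between groups, and its difference depended on which nuclei were counted. They were 3.79, 4.23 and 4.75% of amacrine nuclei in the saline control libraries and 4.97, 4.42 and 4.68% in the IL-27 treated libraries. Saline control libraries averaged 4.26 ± 0.477% and IL-27 treated libraries 4.69 ± 0.274% (SD, n = 3 per group). This gap of 0.432 percentage points had p = 0.3 in a two-sided exact permutation test, for which 0.1 is the smallest possible p. The ranges overlapped. Of all nuclei, VG3 nuclei were 0.409 ± 0.0528% in saline control and 0.396 ± 0.0228% in IL-27 treated libraries (exact permutation p = 0.8). The rule needs whole UMIs and so depends on depth. After nuclei were thinned to 2000 UMIs, leaving out 2191 to 2566 shallower nuclei in the saline control and 2461 to 3650 in the IL-27 treated libraries, the shares were 11.1 ± 1.19% and 11.0 ± 0.477%, and the sign of the difference turned (-0.192 percentage points, exact permutation p = 0.8). The median UMIs per VG3 nucleus were 5757.5, 6324 and 5990.5 in saline control and 5191.5, 5479 and 5896.5 in IL-27 treated libraries (difference -502 UMIs, exact permutation p = 0.2). Across the 6 libraries VG3 nuclei were shallower than other amacrine nuclei in 4, by 380 ± 462 UMIs on average (SD, two-sided exact sign-flip permutation p = 0.125).

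**Figure D1:**
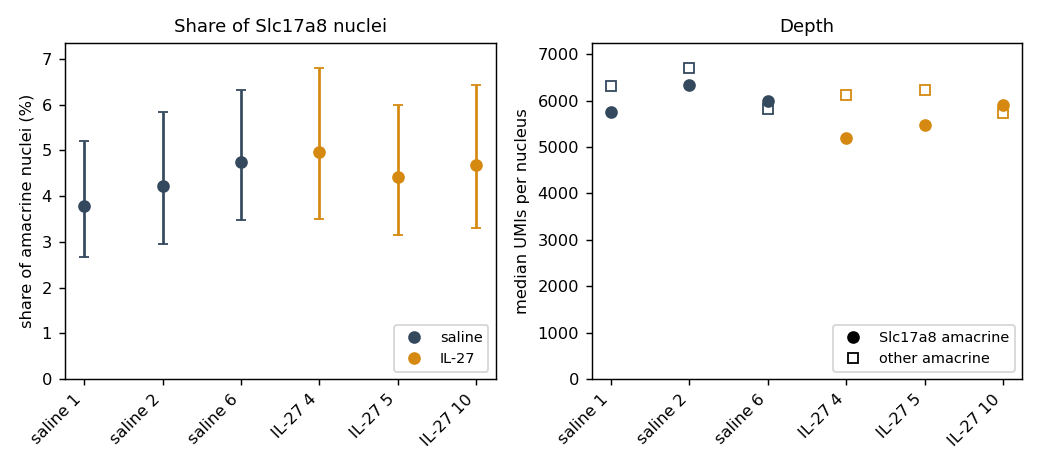
Left, share of amacrine nuclei that were VG3 nuclei (%) in each of the 6 libraries, with exact 95% binomial intervals; right, median UMIs per nucleus of VG3 (filled) and other amacrine nuclei (open). The shares run from 3.79 to 4.97% and their intervals overlap in all libraries, and the medians of VG3 nuclei lie between 5191.5 and 6324 UMIs.

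Against other amacrine nuclei, VG3 nuclei stood apart in a large set of genes that the rule did not use. With the library as a block in edgeR's quasi-likelihood test, 845 of 12908 genes tested were higher (6.55%) and 1265 lower (9.8%) at an adjusted p under 0.05. The same fit against 1891 glycinergic nuclei (Slc6a9, no Gad1) called 1001 of 9362 genes higher (10.7%) and 982 lower (10.5%). Against 2447 GABAergic nuclei (Gad1, no Slc6a9), 935 of 10983 genes were higher (8.51%) and 1196 lower (10.9%). The 3 comparisons share the VG3 sums, so their values are given side by side and not as support for each other. Other amacrine nuclei are a mixture of many subtypes, so a gene that marks 1 of them is diluted in their mean. In the lists below, genes are counted against this mixture unless a class or IL-27 is named. Over all genes tested in that comparison, 6.55% were higher and 9.8% lower. Some list counts differed when glycinergic or GABAergic nuclei were taken alone. Where the libraries of a gene are said not to overlap between classes, the share of such genes over all genes tested is not given. Such statements therefore describe the values of the genes named, which were mostly picked from the called ones.

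Nxph1, which encodes the secreted neurexin ligand neurexophilin 1, was the gene with the largest difference. It was at 4847, 4750 and 5158 CPM in the saline control libraries and 4654, 5291 and 4306 CPM in the IL-27 treated libraries in VG3 nuclei and at 15.0 to 55.1 CPM in other amacrine nuclei (log2 fold change 7.16 ± 0.15 (SE), adjusted p = 1.43e-35). The phospholipid phosphatase gene Plpp4 was at 498, 314 and 441 CPM in the saline control libraries and 449, 413 and 409 CPM in the IL-27 treated libraries, against 2.61 to 5.19 CPM in other amacrine nuclei (log2 fold change 6.68 ± 0.15 (SE), adjusted p = 2.22e-35). In both genes the 6 VG3 sums lay far above the 6 sums of other amacrine nuclei. Bnc2, which encodes a zinc finger protein, was at 831, 934 and 839.8 CPM in the saline control libraries and 794, 782 and 986 CPM in the IL-27 treated libraries, against 13.6 to 31.0 CPM (log2 fold change 5.45 ± 0.12). The carbonic anhydrase gene Car3 was at 271 to 429 CPM in VG3 nuclei and at 2.66 to 10.4 CPM in the others (5.95). Transcription factor genes belonged to this group too. The LIM homeobox gene Lhx2 was at 94.1 to 197 CPM against 4.32 to 7.05 CPM (log2 fold change 4.80 ± 0.19), and the forkhead gene Foxp2 at 65.4 to 165 CPM against 2.79 to 9.001 CPM (4.23 ± 0.24). The neurotensin receptor gene Ntsr1 reached 46.9 to 73.6 CPM against 0.176 to 1.22 CPM (6.05 ± 0.35). Dnah6, a dynein heavy chain gene, Pld5 of the phospholipase D family, the glypican gene Gpc3, Slc16a14 of the monocarboxylate transporter family and the serine protease gene Tmprss11d had log2 fold changes of 5.78, 4.70, 4.65, 4.47 and 4.35. For each of these 12 genes the lowest VG3 library was above the highest library of other amacrine nuclei. The rule that named them asked for a large fold change in the same direction in every library, and that choice largely set this separation. All 12 were also higher against glycinergic and against GABAergic nuclei, which are parts of the same comparison nuclei. Car3 was higher by 4.77 and 9.75 and Ntsr1 by 4.71 and 8.38 on the log2 scale.

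Apart from Hs6st3, the genes with the largest differences in the other direction were at or near 0 in VG3 nuclei. Ankfn1 had 2 UMIs in all VG3 nuclei together and Hmcn1, the hemicentin gene, also 2. Each was 45.8-fold (counting interval 12.7 to 379) higher in the pooled other amacrine nuclei. Chat, the choline acetyltransferase gene that marks starburst cells, had 3 UMIs (27.98-fold (counting interval 9.56 to 136) higher in the others). The growth factor gene Angpt1 was at 0 to 9.39 CPM in VG3 nuclei and at 71.1 to 110.3 CPM in the others, and was highest in glycinergic nuclei (207 ± 33.1 CPM). The estrogen receptor gene Esr1 was at 0 to 12.3 CPM against 87.2 to 117 CPM (log2 fold change -3.84 ± 0.29). Esr1 also belonged to glycinergic nuclei (269 ± 45.5 CPM), and against GABAergic nuclei it did not pass the test (-0.60 ± 0.47, adjusted p = 0.481). Spink13 followed the same pattern, with 409 ± 55.0 CPM in glycinergic and 3.37 ± 0.875 CPM in GABAergic nuclei. Sv2c, a synaptic vesicle protein gene, the long non-coding RNA Sox2ot, the phosphodiesterase gene Pde11a, the potassium channel gene Kcnk2 and Cpne4 instead had their higher level in GABAergic nuclei, Sox2ot at 426 ± 32.0 CPM and Pde11a at 219 ± 21.3 CPM. The heparan sulfate sulfotransferase gene Hs6st3 was the most highly counted gene of this group. It was at 73.0, 136 and 76.3 CPM in the saline control libraries and 74.0, 106 and 225 CPM in the IL-27 treated libraries in VG3 nuclei and at 1299 to 1699 CPM in the others (log2 fold change -3.68 ± 0.13 (SE), adjusted p = 8.34e-27). None of the 12 genes overlapped between VG3 and other amacrine libraries, which the rule that named them largely set.

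**Figure D2:**
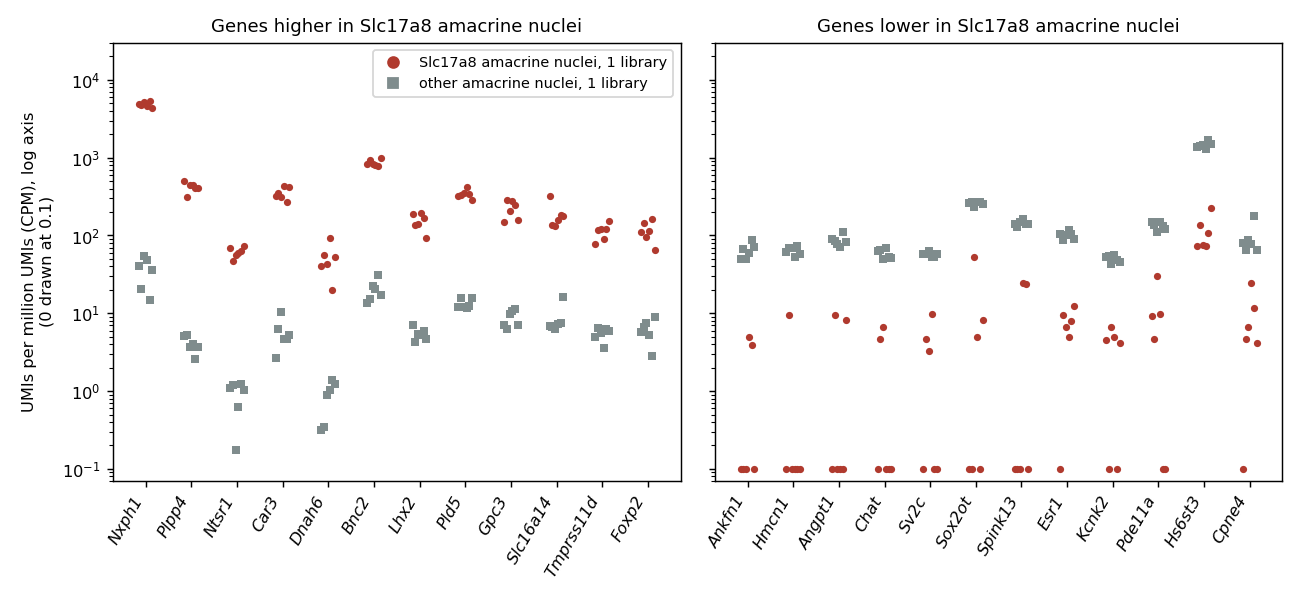
CPM on a log axis of the 12 genes named by rule as higher (left) and the 12 as lower (right) in VG3 nuclei, with 1 point per library for VG3 nuclei (circles) and other amacrine nuclei (squares), values of 0 being drawn at 0.1. The 6 circles lie above the 6 squares for each gene on the left, from Nxph1 at 4306 to 5291 CPM downwards, and below them for each gene on the right.

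Among transmitter genes, the glycine transporter gene Slc6a5 and the glial glutamate transporter gene Slc1a3 were higher in VG3 than in other amacrine nuclei, and Gad2 and the GABA transporter gene Slc6a11 were lower. Slc6a5, the neuronal glycine transporter gene GlyT2, was at 105, 103 and 106 CPM in the saline control libraries and 143, 106 and 85.9 CPM in the IL-27 treated libraries, above the 57.7 to 76.0 CPM of other amacrine nuclei (log2 fold change 0.69 ± 0.14 (SE), adjusted p = 0.000173). The vesicular GABA and glycine transporter gene Slc32a1 was at 100.4, 51.6 and 89.6 CPM in the saline control libraries and 54.2, 59.0 and 102 CPM in the IL-27 treated libraries. Its range overlapped the 58.4 to 95.3 CPM of the others (0.12 ± 0.16, adjusted p = 0.75), and it was higher only against glycinergic nuclei (0.51 ± 0.17, adjusted p = 0.0308). Gad2, which like Gad1 encodes a GABA synthesis enzyme, was at 18.3, 18.8 and 26.6 CPM in the saline control libraries and 9.86, 27.5 and 16.4 CPM in the IL-27 treated libraries, below the 62.8 to 91.2 CPM of the others (-1.93 ± 0.23, adjusted p = 1.9e-09). Gad2 fell below GABAergic nuclei (100.3 ± 16.4 CPM, log2 fold change -2.31 ± 0.21) but did not pass the test against glycinergic nuclei (32.5 ± 10.3 CPM, -0.63 ± 0.27, adjusted p = 0.102). The GABA transporter gene Slc6a11 was at 19.9 to 74.7 CPM against 171 to 211 CPM in the others (-1.83 ± 0.16). It was nevertheless higher in VG3 than in glycinergic nuclei (1.33 ± 0.23, adjusted p = 5.99e-05). Gad1 chose part of the comparison nuclei, so the genes that go with it share in that choice. Of the glycine and GABA handling list, 1 of 8 genes tested was higher and 3 were lower, and the list median was -0.13 beside -0.04 over all genes tested.

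Slc1a3, the glutamate and aspartate transporter GLAST that is best known from Muller glia, was at 397, 507 and 528 CPM in the saline control libraries and 537, 487 and 638 CPM in the IL-27 treated libraries in VG3 nuclei and at 46.5 to 56.1 CPM in the others (log2 fold change 3.31 ± 0.10 (SE), adjusted p = 1.46e-30). The groups were far from overlapping. It was also higher against glycinergic (117 ± 13.7 CPM, 2.20 ± 0.11) and GABAergic nuclei (19.1 ± 5.23 CPM, 4.77 ± 0.11). The other 10 genes of the Muller marker list, summed, were at 448 to 727 CPM in VG3 and at 520 to 651 CPM in other amacrine libraries and overlapped. Of the 10 Muller genes tested, Slc1a3 included, 9 had a positive log2 fold change (median 0.26). Slc1a3 was at 567 CPM in the pooled members of the leading cluster and at 275 CPM in those outside it. The remaining glutamate genes gave small values. Slc17a7, the vesicular transporter gene VGLUT1, was at 3.93 to 31.9 CPM in VG3 and 14.6 to 29.7 CPM in other amacrine nuclei (-0.37 ± 0.32, adjusted p = 0.564). The uptake genes Slc1a2 (-0.88) and Slc1a1 (-0.82) and the glutamine transporter gene Slc38a1 (-0.37) were lower, so that 1 of 13 glutamate handling genes was higher and 3 were lower (median -0.24).

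Genes of the other amacrine transmitters were low. Of the acetylcholine and monoamine genes, none of 6 tested was higher in edgeR and 3 were lower, Chat, the choline transporter gene Slc5a7 (0 to 13.3 CPM against 37.1 to 61.8 CPM, -3.50) and the vesicular monoamine transporter gene Slc18a2 (-1.25), and no other gene passed at an unadjusted p under 0.05. Th, the dopamine synthesis gene, had no UMI in VG3 nuclei and 0 to 1.41 CPM in the others, and was not tested. Of 11 neuropeptide and nitric oxide genes, 6 were lower, among them Tac2 (1 UMI, 12.6-fold (counting interval 2.25 to 501) higher in the others), Npy (-2.63) and Cartpt (11.8 to 43.1 CPM against 61.7 to 116 CPM, -1.72). The 1 higher gene of that list was Nxph1. Against glycinergic nuclei alone, none of 3 acetylcholine and monoamine genes passed in edgeR, adjusted or unadjusted. Of 5 neuropeptide and nitric oxide genes tested there, Nxph1 was higher and Cartpt lower (median 0.29). Gjd2, the connexin 36 gene of electrically coupled amacrine cells, was at 0 to 12.3 CPM against 26.7 to 42.1 CPM (log2 fold change -2.69 ± 0.39 (SE), adjusted p = 3.37e-07), and was highest in glycinergic nuclei (74.5 ± 10.4 CPM). Of 4 gap junction genes tested, Gjd2 and Gjc1 (-1.35) were lower and none higher in edgeR, with no further gene at an unadjusted p under 0.05.

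**Figure D3:**
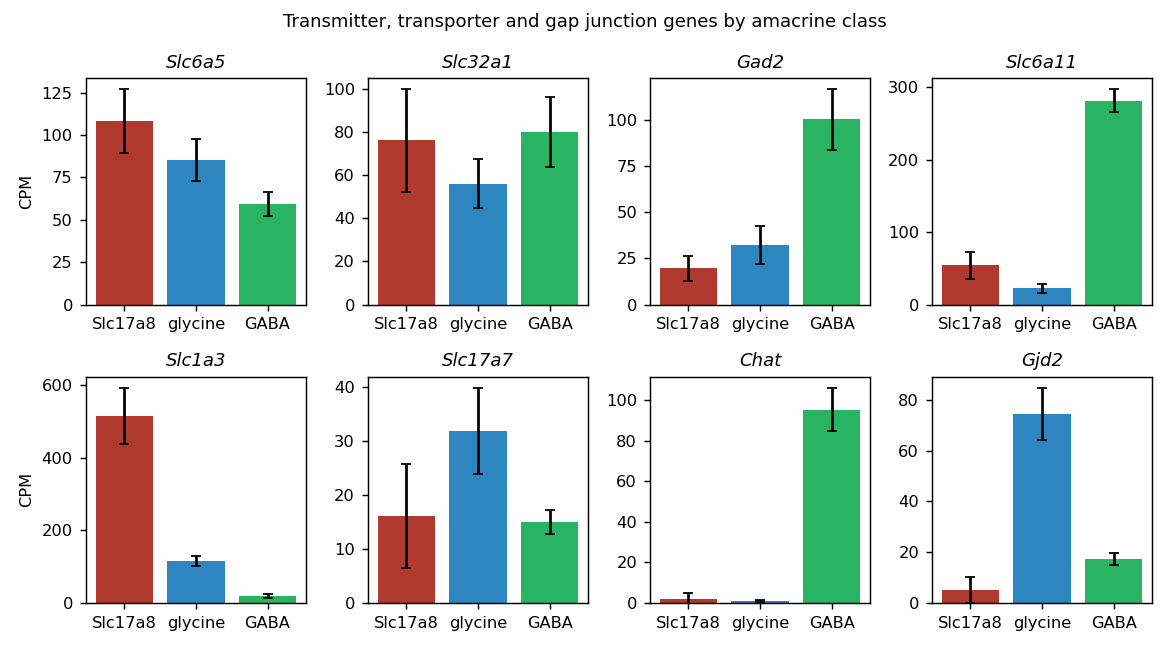
Mean CPM of 8 transmitter, transporter and gap junction genes in VG3 (Slc17a8), glycinergic and GABAergic nuclei, with bars of 1 SD over the 6 libraries, each panel on its own axis from 0. Slc1a3 is highest in VG3 nuclei (516 ± 78.1 CPM), while Gad2, Slc6a11 and Chat are highest in GABAergic and Gjd2 in glycinergic nuclei.

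Receptor genes differed in both directions. Of 26 ionotropic glutamate receptor and auxiliary genes, 7 were higher and 11 lower (median -0.09). Grin2a, an NMDA receptor subunit gene, was at 1712, 1685 and 1905 CPM in the saline control libraries and 1736, 1718 and 1558 CPM in the IL-27 treated libraries, against 247 to 301 CPM (log2 fold change 2.62 ± 0.08 (SE), adjusted p = 2.84e-29). Grid1, a delta receptor gene, was at 953 to 1246 CPM against 104 to 119.9 CPM (3.32 ± 0.08). The 6 VG3 sums of both lay above all sums of the others. The AMPA receptor gene Gria3 (1.29) and the auxiliary subunit genes Neto1 (1.94) and Cacng4 (1.503) were higher too. The kainate receptor genes Grik1 (9.13 to 74.0 CPM against 217 to 407 CPM, -3.22 ± 0.18) and Grik3 (0 to 14.8 CPM against 34.6 to 44.6 CPM, -3.48 ± 0.45) and the NMDA subunit gene Grin2c (1 UMI, 10.6-fold (counting interval 1.88 to 419) higher in the others) were lower. Of 8 metabotropic genes, Grm8 was higher (3302 to 3656 CPM against 1800 to 1994 CPM, 0.89 ± 0.07), and Grm2, Grm5, Grm3 and Grm7 were lower. Grm7 turned with the class compared, being higher than in glycinergic nuclei (0.79 ± 0.09) and lower than in GABAergic nuclei (-1.04 ± 0.08). Against glycinergic nuclei 3 of 6 metabotropic genes were higher and 1 lower, and against GABAergic nuclei 1 of 7 was higher and 5 lower.

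**Figure D4:**
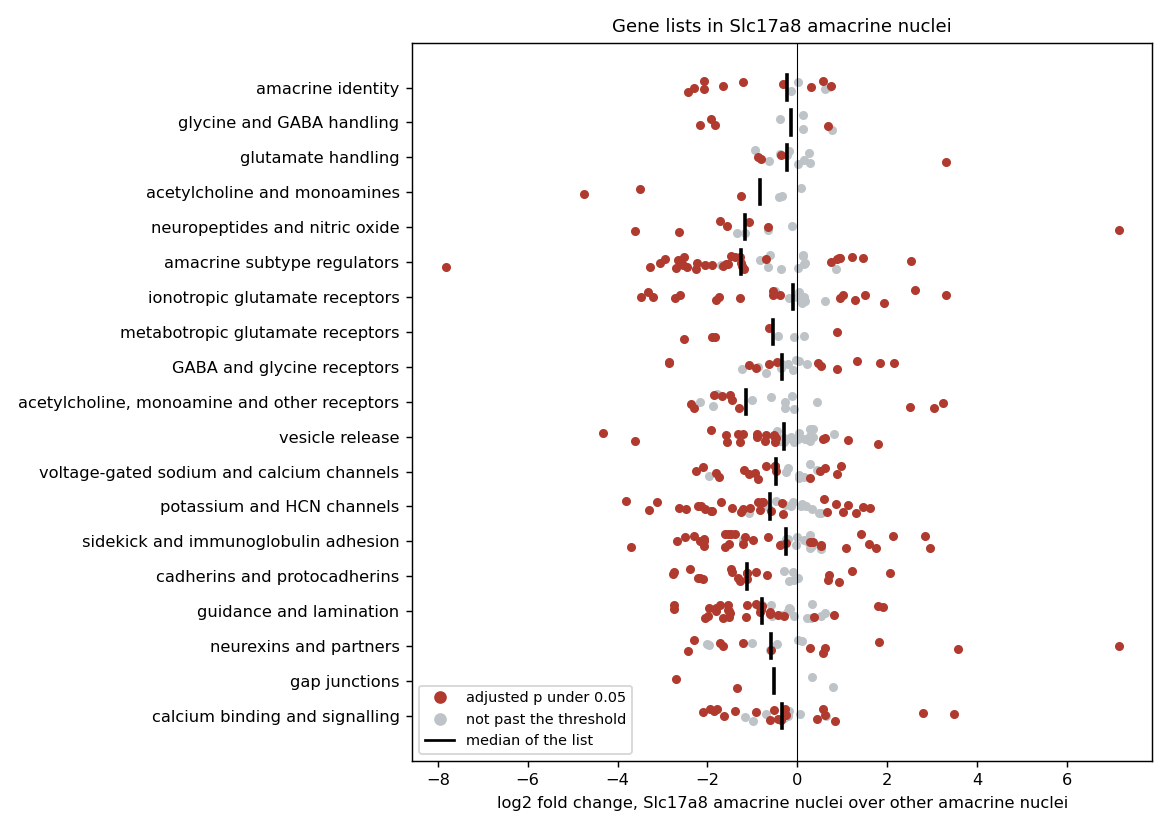
Log2 fold change of VG3 over other amacrine nuclei for each tested gene of 19 lists, with genes past an adjusted p of 0.05 in red, the rest in grey and the list median as a black bar. Called genes lie on both sides of 0 in most lists, the acetylcholine, monoamine and gap junction lists having none above it; the point furthest left is Bcl11b, which had no UMI in VG3 nuclei, so that its fitted value depends on the prior count.

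Among inhibitory receptor genes, 6 of 23 were higher and 6 lower (median -0.34). Gabra2, a GABA receptor subunit gene, was at 1885, 1788 and 1925 CPM in the saline control libraries and 1548, 2005 and 1824 CPM in the IL-27 treated libraries, against 355 to 490.3 CPM (log2 fold change 2.16 ± 0.08 (SE), adjusted p = 4.85e-26). Gphn, which encodes the scaffold protein gephyrin of glycine and GABA synapses, was at 3807 to 4957 CPM against 1126 to 1290 CPM (1.85 ± 0.07), and the glycine receptor gene Glra3 at 549 to 748 CPM against 231 to 286 CPM (1.32 ± 0.09). Gabra5 and Glra2 rose by 0.89 and 0.47 on the log2 scale. The extrasynaptic subunit gene Gabrd (-2.85), Glra4 (2 UMIs, 7.29-fold (counting interval 2.003 to 60.4) higher in the others), Gabrg1, Gabrb1 and Gabbr2 were among the lower ones. Against glycinergic nuclei 6 of 18 inhibitory receptor genes were higher, Gabrb1 among them, and 1 lower. Against GABAergic nuclei 7 of 20 were higher and 9 lower, Gabrb1 among the lower. Of 20 other receptor genes, 3 were higher and 7 lower (median -1.15). The serotonin receptor gene Htr2c was at 288, 756 and 448 CPM in the saline control libraries and 379.6, 617 and 458 CPM in the IL-27 treated libraries, against 37.5 to 62.6 CPM (log2 fold change 3.25 ± 0.14 (SE), adjusted p = 6.24e-24). Another serotonin receptor gene, Htr1b, was at 23.2 to 47.2 CPM against 3.16 to 5.44 CPM (3.05 ± 0.33), and the VIP receptor gene Vipr2 at 295 to 338 CPM against 48.5 to 72.3 CPM (2.52 ± 0.11). All 3, which were picked from the called genes, lay above the others without overlap. The lower genes included the muscarinic receptor gene Chrm2 (-2.36), the cannabinoid receptor gene Cnr1 (-2.29), Htr2a (-1.85) and the dopamine receptor gene Drd2 (-1.67).

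Genes of synaptic specificity also moved both ways. Sdk2 (GRCm38 chr11:113776374-114067046, minus strand) was at 534, 427 and 438 CPM in the saline control libraries and 513, 432 and 458 CPM in the IL-27 treated libraries, against 56.5 to 73.3 CPM in other amacrine nuclei (log2 fold change 2.85 ± 0.09 (SE), adjusted p = 1.99e-28). The lowest VG3 library was far above the highest of the others, and Sdk2 was higher against glycinergic (2.30 ± 0.10) and GABAergic nuclei (3.38 ± 0.10). Its paralog Sdk1 went the other way, at 73.0 to 329 CPM against 929.8 to 1108 CPM (-2.29 ± 0.15). Of 43 sidekick and immunoglobulin adhesion genes, 11 were higher and 20 lower (median -0.24). Igsf21 (2.95), a neurexin partner, Igsf11 (2.14) and Mdga2 (1.76), which restrains neuroligins, were among the higher ones. Cntnap3 (1 UMI, 13.8-fold (counting interval 2.47 to 549) higher in the others), the guidance receptor gene Robo1 (-2.67) and Ncam2 (-2.49) were among the lower ones. Robo1 varied widely between VG3 libraries, at 625, 108 and 305 CPM in the saline control libraries and 118, 129.7 and 896 CPM in the IL-27 treated libraries. Of 19 neurexin and partner genes, 6 were higher and 6 lower (median -0.59). All 3 tested neurexophilin genes were higher, Nxph1, Nxph3 at 9.39 to 32.7 CPM against 1.46 to 1.92 CPM (3.58 ± 0.44) and Nxph2 (1.83 ± 0.18), as were the receptor gene Nrxn3 (0.29) and Nlgn2 (0.62). Nxph2 did not pass the test against glycinergic nuclei (0.37 ± 0.16, adjusted p = 0.124).

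Of 25 cadherin and protocadherin genes, 5 were higher and 15 lower (median -1.11). Pcdh7 was at 4719 to 5874 CPM against 1121 to 1399 CPM (2.07 ± 0.08), and Cdh4, Pcdh11x, Cdh6 and Fat3 were higher by 1.21, 0.92, 0.70 and 0.69. Cdh12 (78.9 to 135 CPM against 586 to 726 CPM, -2.73 ± 0.12), Cdh18 (-2.38) and Pcdh18 (2 UMIs, 7.05-fold (counting interval 1.94 to 58.5) higher in the others) were the lowest. Against glycinergic nuclei 8 of 23 cadherin and protocadherin genes were higher and 7 lower, and against GABAergic nuclei 4 of 25 were higher and 16 lower. Of 42 guidance and lamination genes, 4 were higher and 25 lower (median -0.79). The higher ones were the netrin receptor genes Unc5b (1.90 ± 0.38) and Unc5c (0.81 ± 0.08), the secreted guidance gene Slit1 (61.0 to 108 CPM against 22.8 to 28.04 CPM, 1.80 ± 0.18) and the ephrin receptor gene Ephb2 (0.38 ± 0.13). Sema6a (11.8 to 89.97 CPM against 262 to 320.1 CPM, -2.74 ± 0.17), Sema3d (2 UMIs, 7.05-fold (counting interval 1.94 to 58.5) higher in the others), Nrp2 (-2.05) and Tenm4 (-1.996) headed the lower ones. Against glycinergic nuclei 12 of 39 guidance and lamination genes were higher and 16 lower (median -0.23). Against GABAergic nuclei 5 of 41 were higher and 22 lower (median -0.75).

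Genes of release and excitability gave more lower than higher calls, as did all genes tested together (6.55% higher and 9.8% lower). Of 43 vesicle release genes, 4 were higher and 16 lower (median -0.30). Sv2b, a synaptic vesicle protein gene, was at 269.9 to 415 CPM against 93.0 to 128 CPM (1.80 ± 0.11), and the active zone genes Erc2 (0.62) and Unc13c (0.56) were higher too. Sv2c, Syt10 (2 UMIs, 12.8-fold (counting interval 3.53 to 106) higher in the others), Doc2b (-1.93) and Syt9 (-1.60) were lower. Against GABAergic nuclei 6 of 41 genes of this list were higher and 21 lower, and against glycinergic nuclei 9 of 36 each way. Of 25 sodium and calcium channel genes, 5 were higher and 12 lower (median -0.47), with the L-type channel gene Cacna1c up (585 to 739 CPM against 308 to 399.5 CPM, 0.89 ± 0.09) and Cacna2d3 (-2.09) and the T-type genes Cacna1h (-2.26) and Cacna1i (-1.82) down. Cacna2d3 was lower than in glycinergic but higher than in GABAergic nuclei. Of 42 potassium and HCN channel genes, 8 were higher and 22 lower (median -0.61). The leak channel genes Kcnk9 (53.2 to 117 CPM against 25.6 to 33.1 CPM, 1.62 ± 0.18) and Kcnk10 (1.47) were higher, and Kcnk2 and the delayed rectifier gene Kcnb2 (44.98 to 139 CPM against 809 to 1082 CPM, -3.29 ± 0.13) were lower. Of 28 calcium binding and signalling genes, 6 were higher and 13 lower (median -0.33). The cation channel gene Trpc5 was at 63.9 to 158 CPM against 6.80 to 12.3 CPM (3.49 ± 0.21) and the phosphodiesterase gene Pde1c at 1802 to 2361 CPM against 279.6 to 313 CPM (2.79 ± 0.08), both without overlap. Pde4d (-2.11), Camk4 (-1.95) and the calretinin gene Calb2 (4.93 to 33.2 CPM against 42.0 to 80.8 CPM, -1.62) were lower.

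Transcription factor genes separated VG3 nuclei from both amacrine classes. Of 41 amacrine subtype regulators, 7 were higher and 23 lower (median -1.24). Neurod2 was at 54.8, 61.0 and 113 CPM in the saline control libraries and 74.0, 51.1 and 57.3 CPM in the IL-27 treated libraries, against 9.42 to 15.1 CPM (log2 fold change 2.54 ± 0.22 (SE), adjusted p = 3.53e-13). Lhx9 was at 56.3 to 109.5 CPM against 22.7 to 41.0 CPM (1.47 ± 0.19) and differed most from glycinergic nuclei (2.87 ± 1.32 CPM, 4.80 ± 0.29). Meis1 was at 704 to 806 CPM against 308 to 364 CPM (1.22 ± 0.08), and its paralog Meis2 went the other way (-2.07 ± 0.17). Meis2 turned with the class compared, being called higher than in glycinergic and lower than in GABAergic nuclei. Of its UMIs in VG3 nuclei, the 24 members outside the leading cluster gave 252 and the 202 inside it 77. These were 1036 and 64.6 CPM, pooled, so the level of the whole class rested mostly on the members outside. Bcl11b had no UMI in VG3 nuclei, which puts the others at least 4.67-fold higher against a floor of 3 counts over the class. Zeb2 was at 45.6 to 185 CPM against 664 to 812 CPM (-3.06 ± 0.14), and Pou3f3 had 1 UMI (10.0-fold (counting interval 1.78 to 397) higher in the others). Ebf3, a factor of glycinergic amacrine cells, was at 4.56, 32.9 and 26.6 CPM in the saline control libraries and 0, 23.6 and 12.3 CPM in the IL-27 treated libraries, against 127 to 142 CPM (-2.94 ± 0.24). Its direction depended on the class, being lower than in glycinergic (365 ± 36.3 CPM, -4.32 ± 0.22) and higher than in GABAergic nuclei (6.08 ± 3.30 CPM, 1.54 ± 0.49, adjusted p = 0.0209). Neurod6 had no UMI in VG3 nuclei and was not tested.

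Of 20 further subtype markers, 5 were higher (Car3, Lamp5, Gria3, Egfem1 and Car2) and 10 lower (median -1.59). Lamp5 was at 282 to 465 CPM against 102 to 116 CPM (1.76 ± 0.10). It was also called higher against glycinergic nuclei alone, which were at 286 ± 29.7 CPM. Megf11, an adhesion gene of starburst cells, was at 4.56 to 43.1 CPM against 189 to 219.9 CPM (-3.26 ± 0.20), and the growth factor gene Igf1 differed by -3.23. Of 14 pan-amacrine identity genes, 3 were higher and 7 lower (median -0.23), Tcf4 (0.75) and Snap25 (0.31) being among the higher ones and Tfap2c (-2.43), C1ql2 (-2.30), Cntnap4 (-2.08) and Meis2 the furthest lower. Against glycinergic nuclei 5 of 13 were higher and 5 lower, Tcf4 among the lower. Meis2 was among the higher ones, with most of its UMIs from members outside the leading cluster. Pax6, expressed by amacrine cells in general, was at 365 to 539.7 CPM in VG3 nuclei and at 484 to 576 CPM in the others (-0.32 ± 0.09, adjusted p = 0.00704).

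Markers of other retinal cell types differed from list to list, bipolar genes having the most calls. Of 14 rod genes tested none was called in edgeR, 2 passing at an unadjusted p under 0.05, and their summed level was 601 to 883 CPM in VG3 and 576 to 1390 CPM in other amacrine libraries. Against glycinergic nuclei 8 of 13 rod genes were lower. Summed cone genes were at 62.9 to 127 CPM against 136 to 206 CPM, with 1 of 7 lower, and horizontal cell genes at 78.9 to 161 CPM against 157 to 212 CPM, with 2 of 6 lower. Of 9 bipolar genes, 2 were higher, among them Prkca, and 4 lower, the summed level being 929 to 1100 CPM against 1045 to 1232 CPM. Of 10 Muller genes, Slc1a3 was higher and Dkk3 (-0.88) lower, of 7 microglia genes P2ry12 (-0.95) was lower, of 5 ganglion cell genes Thy1 was lower, and of 5 astrocyte and vascular genes Flt1 (1.83) was higher and Pdgfra lower. Flt1 was concentrated in 1 sub-cluster of 31 VG3 nuclei, at 145 CPM against 6.95 CPM in the other members. Against GABAergic nuclei the Muller genes Slc1a3, Aqp4 and Apoe were higher and Dkk3 lower, with 8 of 9 positive (median 0.41). Against glycinergic nuclei only Slc1a3 was called, with 5 of 9 positive (median 0.02). The part of these cell type markers in the differences was not tested. Stress lists were close to level, with 2 of 17 heat shock genes lower, 1 of 15 immediate early genes higher and 1 lower, 1 of 24 interferon response genes higher and 1 lower, and of 17 cell death genes Apaf1 higher (39.4 to 68.5 CPM against 33.4 to 38.3 CPM, 0.67 ± 0.19). Of 9 IL-27 pathway genes, 1 was higher and Stat5b was lower (-0.92 ± 0.18).

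In IL-27 treated retinas, VG3 nuclei had higher Meis2 and Fgf14, and these were the only 2 of 4464 genes tested that passed in edgeR (0.0448% higher, 0% lower). Meis2 (GRCm38 chr2:115863064-116065839, minus strand), a homeobox transcription factor gene of GABAergic amacrine cells, was at 137, 61.0 and 103 CPM in the saline control libraries and 350.1, 322 and 417 CPM in the IL-27 treated libraries (log2 fold change 1.86 ± 0.23 (SE), adjusted p = 0.000434). Fgf14 (chr14:123977907-124677127, minus strand), which encodes a cytosolic factor that binds sodium channels, was at 246, 211 and 275 CPM in the saline control libraries and 429, 503 and 629.8 CPM in the IL-27 treated libraries (log2 fold change 1.10 ± 0.18 (SE), adjusted p = 0.0111). In both genes the 3 IL-27 treated libraries lay above the 3 saline control libraries. Before adjustment 111 genes were higher and 78 lower at p under 0.05, and DESeq2 called 2 higher and 0 lower. IL-27 treated libraries lay wholly above saline control libraries in 183 genes (4.1%) and wholly below in 248 (5.56%).

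The few members outside the leading cluster gave most Meis2 and Fgf14 UMIs in IL-27 treated 5 and 10, but not in IL-27 treated 4. They also gave most UMIs of both genes in saline control 1 and most of Meis2 in saline control 6. For Meis2 these nuclei gave 19 of 30, 1 of 13 and 22 of 31 UMIs in the saline control libraries and 34 of 71, 77 of 82 and 99 of 102 in the IL-27 treated libraries. For Fgf14 they gave 33 of 54, 1 of 45 and 32 of 83 UMIs in the saline control and 29 of 87, 90 of 128 and 122 of 154 in the IL-27 treated libraries. Only the rule genes were kept out of the clustering, so Meis2 and Fgf14 could themselves help place nuclei inside or outside that cluster. A smaller difference within it can thus be set in part by how the cluster was drawn, and the values are descriptive. In members of the leading cluster alone, Meis2 was at 57.5, 58.8 and 37.4 CPM in the saline control libraries and 206, 25.3 and 16.8 CPM in the IL-27 treated libraries, and the ranges overlapped (log2 fold change 0.70 ± 0.55, adjusted p = 0.997). Fgf14 was there at 109.8, 215 and 212 CPM in the saline control libraries and 323, 192 and 179 CPM in the IL-27 treated libraries (0.37 ± 0.26, adjusted p = 0.997). No gene passed in the leading cluster in edgeR, where 67 genes were higher and 59 lower before adjustment. In other amacrine nuclei Meis2 was at 865 to 970.5 CPM and did not pass the test of IL-27 against saline (0.02 ± 0.08, adjusted p = 1), nor did Fgf14 (0.08 ± 0.09). Meis2 alone passed without doublet candidates, without nuclei of outlying depth, with at least 3 Slc17a8 UMIs required or without saline control 1, Fgf14 did not pass without saline control 2 either, and with 156 nuclei that carried exclusion genes admitted no gene passed (139 higher and 186 lower unadjusted). Without IL-27 treated 10 the count rose to 8.

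**Figure D5:**
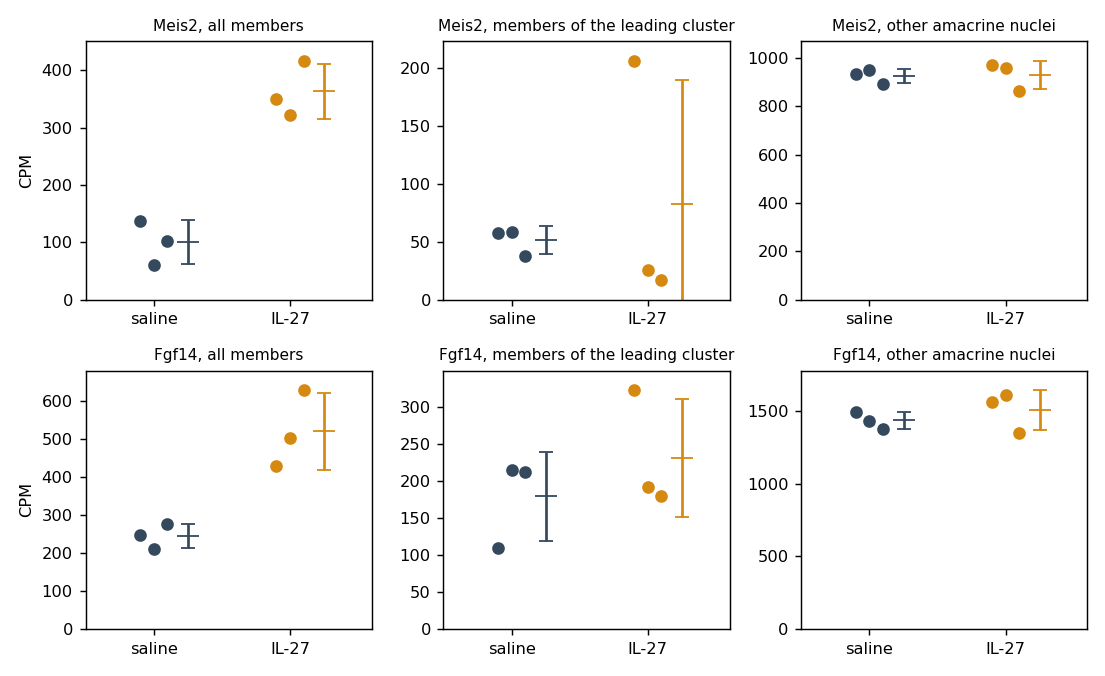
CPM of Meis2 (top) and Fgf14 (bottom) in all VG3 nuclei, in the members of the leading cluster and in other amacrine nuclei, with 1 point per library and the mean ± SD of 3 libraries beside it, each panel on its own axis from 0. IL-27 treated libraries are above saline control libraries in all VG3 nuclei (Meis2 322 to 417 against 61.0 to 137 CPM) and overlap them in the leading cluster and in other amacrine nuclei.

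The next genes by unadjusted p did not pass. Of those whose 3 libraries per group did not overlap, Nav2 was at 141, 108 and 143 CPM in the saline control libraries and 251, 224 and 269.9 CPM in the IL-27 treated libraries (0.93 ± 0.21, adjusted p = 0.345), and Astn2 and Nav3 gave 1.10 and 0.80 with adjusted p of 0.524 and 0.594. In the other direction Kat2b, a histone acetyltransferase gene, was at 178, 131 and 189 CPM in the saline control libraries and 83.8, 110.1 and 98.1 CPM in the IL-27 treated libraries (-0.76 ± 0.24, adjusted p = 0.846). Its values in the leading cluster alone were 178, 137 and 199 CPM in the saline control libraries and 78.0, 111 and 95.2 CPM in the IL-27 treated libraries. The log2 fold changes of Nav2, Nav3 and Astn2 there were 0.20 ± 0.31, 0.42 ± 0.27 and 0.78 ± 0.33 (adjusted p = 0.997 for each in edgeR). Of the Nav2 UMIs, the members outside the leading cluster gave 13 of 31, 8 of 23 and 19 of 43 in the saline control libraries and 36 of 51, 28 of 57 and 53 of 66 in the IL-27 treated libraries. Ammecr1 and Sc5d gave -1.27 and -1.19, each with an adjusted p of 0.846.

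None of the IL-27 pathway genes tested in VG3 nuclei passed in edgeR or DESeq2, and 1 of 6, Jak1, had an unadjusted p under 0.05. Il27ra, the receptor gene, had no UMI in VG3 nuclei and was not tested, and in other amacrine nuclei it was at 0 in 4 of 6 libraries. The floor of 3 counts lay between 9.96 and 14.8 CPM in the VG3 sums, so lower levels were not detectable at this depth. Il6st, the shared receptor subunit gene, was at 9.13, 42.2 and 43.1 CPM in the saline control libraries and 64.1, 51.1 and 53.2 CPM in the IL-27 treated libraries (0.78 ± 0.43, adjusted p = 0.995). Jak1 was at 36.5, 65.7 and 53.1 CPM in the saline control libraries and 83.8, 114 and 89.97 CPM in the IL-27 treated libraries (0.90 ± 0.31, adjusted p = 0.846 in edgeR). In these 2 genes the IL-27 treated libraries lay wholly above the saline control libraries, as they did in 183 of all 4464 genes tested (4.1%). Stat3 was at 68.5, 61.0 and 79.7 CPM in the saline control libraries and 14.8, 149 and 89.97 CPM in the IL-27 treated libraries and overlapped between groups (0.33 ± 0.42, adjusted p = 0.995). Socs3 had 3 UMIs and was not tested. All 6 tested genes of the list had a positive log2 fold change, with a median of 0.46 beside 0.01 over all genes tested, but the direction was not kept under every alternative, Stat3 turning to -0.32 without IL-27 treated 5 and to -0.42 with exclusion-gene nuclei admitted. None of the 4 interferon response, 8 heat shock and 4 cell death genes tested passed in edgeR, adjusted or unadjusted, or in DESeq2.

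A test of the IL-27 effect in VG3 nuclei against that in other amacrine nuclei of the same libraries called 9 of 14120 genes higher (0.0637%) and 4 lower (0.0283%) in edgeR, and 1 in DESeq2. Meis2 (log2 fold change 1.82 ± 0.22 (SE), adjusted p = 5.09e-12) and Fgf14 (log2 fold change 0.99 ± 0.19 (SE), adjusted p = 0.000532) were among the 9. With members of the leading cluster alone, 3 genes were higher and 2 lower, and Rnf220 was the only gene found in both sets of calls. Rnf220 was at 36.5, 300.4 and 19.9 CPM in the saline control libraries and 39.4, 19.7 and 57.3 CPM in the IL-27 treated libraries, so that saline control 2 stood above the other 5 libraries. Without that library its difference turned from -1.41 to 0.49 (adjusted p = 1.0).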

How the data were processed

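Single-nucleus RNA sequencing of rd10 mouse retina gave 3 saline control libraries (1, 2 and 6) and 3 IL-27 treated libraries (4, 5 and 10). The deposited matrices hold raw UMI counts per gene and nucleus, which the authors made with Cell Ranger against the 10x Genomics mouse reference and filtered to nuclei. The submitters' processing notes name Cell Ranger 9.0.1 and Seurat 5.2.1, while the file headers name Cell Ranger 8.0.1. The genome build is not given in the sources used here. Gene positions came from GENCODE M21 (GRCm38), which holds 32235 of the 32285 gene identifiers (99.8%). The matrices held 36678332 to 48260748 UMIs per library, and 8868 to 9885 nuclei per library were kept.

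Counts were summed per library and class and tested with the quasi-likelihood test of edgeR 4.0.16 (R 4.3.3, TMM, filterByExpr with a minimum count of 10, Benjamini-Hochberg adjustment over all genes tested, threshold 0.05), with the library as a block between classes. DESeq2 1.42.0 was an alternative. Log2 fold changes are given with their SE. Rule genes were left out of the tests and their counts. Shares and depths were compared by two-sided exact permutation tests over libraries. VG3 and other amacrine nuclei were clustered without the rule genes in scanpy 1.11.5 (2000 variable genes, 25 components, 20 neighbours, resolution 1). Doublet candidates were kept in the main analysis and removed in an alternative. On simulated counts with 200 genes changed by 1.5 (log2), the test recovered 140 against other amacrine nuclei, 175 against glycinergic nuclei, 156 against GABAergic nuclei, 142 for IL-27 in VG3 nuclei and 8 for the difference of the IL-27 effect between classes. The simulation gave all genes the same negative binomial spread. Apart from the changed genes, its classes and libraries differed only in depth, so recovery in the real libraries can be lower. Intervals and floors cover counting error only, and a pooled ratio of a gene with 1 to 3 UMIs is given with its exact counting interval.

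The members, the 35 gene lists (735 genes) and the tests were chosen with earlier results of these data known. Genes were named by rule as up to 12 per direction with the largest fold change among those called, changed the same way in all 6 libraries and at 50 CPM or more in the higher class, as up to 4 called genes per list, and for IL-27 by smallest p. Other genes named to spell out a count or a role were chosen after their values were seen. Some genes that these rules name are not reported here.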

Additional observations from a re-analysis of the deposited data

Results flagged for a closer look

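The IL-27 effect in VG3 nuclei differed from that in other amacrine nuclei of the same libraries for 13 genes by the interaction term of edgeR's quasi-likelihood test, and each value given here is the log2 fold change of IL-27 over saline in VG3 nuclei minus that in other amacrine nuclei. Among the 9 positive differences were Meis2 (1.82), Pcdh9 (1.27), Adarb2 (1.53), Cntnap5a (2.04), Fgf14 (0.99), Astn2 (0.97), Nkain3 (2.28) and the long non-coding RNA 1700024B18Rik (1.96), which lies inside Fgf14 on the opposite strand. The 4 negative differences were 4930555F03Rik (-3.09), Cntn3 (-2.29), Rnf220 (-1.41) and Rin2 (-2.27).

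Pcdh9, a protocadherin gene, was at 86.7, 465 and 797 CPM in the saline control libraries and 1026, 1160 and 977 CPM in the IL-27 treated libraries in VG3 nuclei and at 2950 to 3480 CPM in other amacrine nuclei, and the lowest value belonged to saline control 1. Adarb2, which encodes an RNA editing enzyme relative, was at 82.2, 4.69 and 183 CPM in the saline control libraries and 488, 487 and 110.4 CPM in the IL-27 treated libraries, so that the groups overlapped. Cntnap5a was at 0, 14.1 and 69.7 CPM in the saline control libraries and 316, 82.6 and 49.1 CPM in the IL-27 treated libraries, with its highest value in IL-27 treated 4. Cntn3 was at 9.13, 202 and 23.2 CPM in the saline control libraries and 24.7, 7.86 and 16.4 CPM in the IL-27 treated libraries, and like Rnf220 it was high in saline control 2 alone. 4930555F03Rik was at 9.13, 93.9 and 59.7 CPM in the saline control libraries and 19.7, 0 and 4.09 CPM in the IL-27 treated libraries and overlapped between groups. Nkain3 (0, 9.39 and 16.6 CPM in the saline control libraries and 54.2, 43.2 and 40.9 CPM in the IL-27 treated libraries) and Rin2 (77.6, 46.9 and 36.5 CPM in the saline control libraries and 19.7, 15.7 and 4.09 CPM in the IL-27 treated libraries) did not overlap. Of the 4464 genes tested for IL-27 in VG3 nuclei, 4.1% lay wholly above and 5.56% wholly below the saline control libraries.

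In the members of the leading cluster alone, the differences of Meis2, Pcdh9, Adarb2, Fgf14 and Nkain3 were 0.62, 0.40, 0.38, 0.26 and 0.22, none past the threshold in edgeR. These genes were not kept out of the clustering that drew the cluster, so its values are descriptive. Those of Cntnap5a and Cntn3 were 2.12 and -2.11 there, with adjusted p of 0.486 and 0.0516 in edgeR, and that of Rnf220 was -2.66 (adjusted p = 3.73e-06). Ebf1 (2.21), Cacna2d3 (1.47), Man1a (4.28) and Nrg1 (-1.11) were called in that set and not among all members.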

How the results depend on the processing

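Calls between VG3 and other amacrine nuclei numbered 2110, and 1859 to 1960 when each library was left out in turn. They numbered 1983 (1739 to 1852) against glycinergic and 2131 (1908 to 2005) against GABAergic nuclei. Without the library as replicate block they were 873 higher and 1268 lower, 1016 and 937, and 944 and 1217. The GABAergic count dropped to 1343 with comparison nuclei matched on depth, where 5889 genes were tested. With no filter on low counts the median over all genes moved from -0.04 to -0.35.

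The 2 calls for IL-27 in VG3 nuclei became 12 with no filter on low counts, 1 without doublet candidates, without nuclei of outlying depth or with at least 3 Slc17a8 UMIs, 0 in the leading cluster (smallest adjusted p 0.31 in edgeR), 0 with exclusion-gene nuclei admitted (0.14, chosen after seeing the data), and 1 to 8 with a library left out. The 13 interaction calls became 1 in DESeq2, 1 with a stricter filter, 1 with depth-matched nuclei, 5 in the leading cluster, and 8 to 19 with a library left out. The cause was not tested.

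The share difference of 0.432 percentage points was 0.495 (exact permutation p = 0.1) with comparison nuclei not held to the exclusion genes. It reversed to -0.0125 of all nuclei and -0.192 after thinning, and ran from 0.201 to 0.678 with a library left out, while the depth difference ran from -689 to -336 UMIs. With exclusion-gene nuclei admitted Nav2 turned to -0.14 and Stat3 to -0.42. With a library left out Stat3 ran from -0.32 (without IL-27 treated 5) to 0.77 and the interaction value of Rnf220 from -2.03 to 0.49 (without saline control 2). With 35 to 44 VG3 nuclei per library, genes under the floor of 9.96 to 14.8 CPM could not be compared.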

Other observations

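Clustered by themselves without the rule genes, the 226 VG3 nuclei formed 8 sub-clusters of 51, 43, 31, 31, 24, 22, 12 and 12 nuclei, which are described by their leading genes and carry no test. One of the sub-clusters with 31 nuclei was led by Ebf1 (229 CPM against 7.82 CPM in the other members), Ptprt (539 against 19.1 CPM), Lgr5, Nfib and Flt1, and 16 of its nuclei were in the leading cluster. It held 4, 9 and 4 nuclei of the saline control and 5, 4 and 5 of the IL-27 treated libraries. A sub-cluster of 12 was led by Adarb2 (2069 against 23.2 CPM), Slc26a7, Ell2, Mctp1 and Tnc, and only 3 of its nuclei were in the leading cluster. The other sub-cluster of 12 was led by Fabp12 (193 against 2.21 CPM), Gucy2f, Pdzph1, Frmpd2 and Ano2. The largest sub-cluster, with 51 nuclei, was led by Tmem132b at 3.07-fold.

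The 156 Slc17a8 nuclei that held an amacrine marker but also a UMI of an exclusion gene had 1694 CPM of Nxph1 and 368 CPM of Slc1a3, pooled. Over the 12 genes higher in VG3 nuclei their median level was 108 CPM, against 227 CPM in members of the leading cluster, 86.3 CPM in members outside it and 5.88 CPM in other amacrine nuclei. The 239 nuclei with Slc17a8, an exclusion gene and no amacrine marker were at 2.40 CPM by the same measure, with 9.61 CPM of Nxph1 and 1004 CPM of Slc1a3.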
